A study of Mus musculus with 4 samples.

Results

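The chemokine genes encode small secreted or membrane-bound proteins that attract leukocytes. They were picked by symbol: protein-coding genes named Ccl or Cxcl with a number and an optional letter, Cx3cl1 and Xcl1, on the autosomes of mm10. This gave 38 of 20560 autosomal protein-coding genes, of which 24 belong to the CC family, 12 to the CXC family, 1 to the CX3C family and 1 to the XC family. No measured value entered the choice. A further match, Ccl21c, was set aside because the gene table lists it below 3 Mb, where neither list has a peak on any autosome. Cxcl11 is listed as a pseudogene and did not qualify.

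The mark mapped was H3K9me3, a histone modification found on silent chromatin, in muscle stem cells of the mouse that had been isolated with magnetic beads and cultured. One culture received 4-hydroxytamoxifen (4-OHT) for 72 h to delete Setdb1, the gene of an H3K9 methyltransferase, and is labelled Setdb1lox/lox;Pax7GakaCreERT3. The control culture received ethanol and is labelled Setdb1lox/lox;Pax7GakaCreERT2, so both carried loxP-flanked Setdb1 and a Cre gene named for Pax7. The last digit of this label counts up from sample to sample, so it may not name different Cre genes. Cre under Pax7 acts only in cells that express that gene, and how many animals each culture came from is not stated in the labels. Each condition had 1 H3K9me3 sample and 1 peak list, so differences between the lists were not checked against replicates and no p-value was computed. The replicate number in the peak names differs from that in the sample titles, so a list stands for its condition and not for a named library.

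Chemokines signal through receptors coupled to G proteins on leukocytes. In injured muscle, chemokines such as Ccl2 draw monocytes to the damaged fibres. Many are silent until inflammation switches them on, often through NF-kB. H3K9me3 typically lies over repeats and silenced gene clusters. Setdb1 places it at retroviral repeats in other mouse cell types.

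The deposited data were 2 lists of broad peaks, with 108595 autosomal peaks for 4-OHT and 103258 for the control. They covered 5.38% and 5.46% of the autosomes, counted from 3 Mb to the last gene or peak. Read depth is unknown. Pax7, Myf5, Myod1, Myog and Des, genes of muscle stem cells and muscle fibres, had no peak in the gene plus 5 kb in either list. This does not measure their expression. Setdb1 was covered at 0% in the 4-OHT list and 0.888% in the control list, which is no check of the deletion.

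No called peak touched the annotated starts of the chemokine genes in either list, as far as these were listed. RefSeq promoters (GRCm38.p6) were found for 28 of the 38 genes, with 34 starts between them. The 250 bases before each start held no peak base in the 4-OHT list or the control list. The same count is not given for all promoters, so the absence cannot be called particular to these genes. The median distance from these starts to a peak was 74.4 kb in the 4-OHT list and 78.6 kb in the control list. The sequences below are the 250 bases before the start of 5 of the 6 genes that had a peak nearby, all but Ccl4, so that each can be set beside the peak positions that follow. Each is written 5′ to 3′ along its gene. Capitals mark matches to TATAAA in the direction of the gene and to a short form of the NF-kB motif (GGG, any 3 bases, TTCC) on either strand. The second of 2 annotated Ccl25 starts is shown, the one nearest the Ccl25 peak.
Ccl12 (chr11:82101595-82101844, + strand): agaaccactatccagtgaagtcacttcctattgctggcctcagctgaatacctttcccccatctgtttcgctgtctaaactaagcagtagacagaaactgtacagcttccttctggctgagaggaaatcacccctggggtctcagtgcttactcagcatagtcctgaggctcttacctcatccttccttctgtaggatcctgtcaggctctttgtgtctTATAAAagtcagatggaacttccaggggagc
Ccl3 (chr11:83649379-83649628, - strand): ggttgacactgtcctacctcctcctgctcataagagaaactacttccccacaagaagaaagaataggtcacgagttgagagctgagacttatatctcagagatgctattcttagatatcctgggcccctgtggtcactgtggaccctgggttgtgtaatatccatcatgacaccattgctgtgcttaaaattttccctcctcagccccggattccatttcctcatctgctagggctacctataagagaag
Cxcl14 (chr13:56296552-56296801, - strand): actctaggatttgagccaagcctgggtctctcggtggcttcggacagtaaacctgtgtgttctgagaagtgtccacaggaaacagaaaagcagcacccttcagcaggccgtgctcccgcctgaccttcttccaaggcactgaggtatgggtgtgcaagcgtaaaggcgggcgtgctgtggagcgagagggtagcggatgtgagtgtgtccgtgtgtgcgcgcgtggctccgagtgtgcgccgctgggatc
Ccl28 (chr13:119623569-119623818, + strand): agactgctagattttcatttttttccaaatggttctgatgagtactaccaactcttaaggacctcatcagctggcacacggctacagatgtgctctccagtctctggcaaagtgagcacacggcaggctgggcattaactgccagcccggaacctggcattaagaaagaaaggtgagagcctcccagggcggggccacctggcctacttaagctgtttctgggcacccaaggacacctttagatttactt
Ccl25 (chr8:4349338-4349587, + strand): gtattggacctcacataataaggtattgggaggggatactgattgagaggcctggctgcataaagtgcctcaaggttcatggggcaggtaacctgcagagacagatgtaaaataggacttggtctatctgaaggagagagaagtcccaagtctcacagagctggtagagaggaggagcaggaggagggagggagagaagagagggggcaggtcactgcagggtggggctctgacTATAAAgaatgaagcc

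Promoters of a pair of genes with no peak nearby follow, chosen because both carry the NF-kB letters. They are Cxcl1, whose protein attracts neutrophils, and Cxcl10, whose protein attracts T cells. Other genes with no peak nearby, such as Ccl19 and Cxcl9, lacked these letters, so the pair shows no link between letters and peaks.
Cxcl1 (chr5:90890995-90891244, + strand): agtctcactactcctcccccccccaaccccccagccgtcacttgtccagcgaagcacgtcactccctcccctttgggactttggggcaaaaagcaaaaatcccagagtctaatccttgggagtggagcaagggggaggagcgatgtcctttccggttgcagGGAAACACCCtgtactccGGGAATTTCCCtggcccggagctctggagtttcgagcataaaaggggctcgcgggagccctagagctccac
Cxcl10 (chr5:92348890-92349139, - strand): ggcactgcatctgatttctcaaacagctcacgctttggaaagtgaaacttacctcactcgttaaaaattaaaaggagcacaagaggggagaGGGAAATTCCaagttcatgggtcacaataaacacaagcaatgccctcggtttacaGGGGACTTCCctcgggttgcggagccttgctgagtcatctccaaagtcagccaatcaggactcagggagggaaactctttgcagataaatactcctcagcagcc

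Among the 34 member promoters, 7 held the NF-kB letters and 9 held TATAAA, against 4.69% and 7.59% of 31396 autosomal promoters of the same length. The 7 were those of Ccl20, Cxcl3, Cxcl1, Cxcl2, Cxcl10, Ccl1 and Ccl9. In Cxcl1, Cxcl2 and Cxcl3, 2 of the 3 matches overlap each other, as do both matches of Ccl1. A match is a description of letters and not a binding site.

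Peaks near chemokine genes were few in both lists. A peak lay in the gene plus 5 kb on both sides, called the window here, for 5 of 38 genes in the 4-OHT list (13.2%, Wilson interval 5.75 to 27.3%) and for 2 of 38 in the control list (5.26%, 1.46 to 17.3%). Of all autosomal protein-coding genes, 31.0% had one in the 4-OHT list and 30.3% in the control list. No peak was in the window in either list for 32 of 38 members, against 63.4% of all genes. Members are short, with a median length of 4.00 kb against 17.6 kb for all genes, and a shorter window meets fewer peaks. Covered percent is taken per base. Peaks covered on average 0.724% of the member windows in the 4-OHT list and 0.226% in the control list, against 3.03% and 3.06% for all genes. Intervals cover counting error only, and neighbouring members share peaks.

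The mean difference between the lists, 0.498 points (4-OHT minus control), came from 6 genes. Ccl12, Ccl3, Ccl4 and Cxcl14 had a peak in the window in the 4-OHT list only, which is 4 of 38 against 6.28% of all genes. Ccl25 had one in the control list only, which is 1 of 38 against 5.64% of all genes. Ccl28 had peaks in both lists. Without the 12 genes of chromosome 11 the mean covered percent was 0.229% in the 4-OHT list and 0.330% in the control list, a difference of -0.101 points. The direction therefore rested on chromosome 11.

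Ccl3 and Ccl4 encode the macrophage inflammatory proteins, which attract macrophages and T cells, and overlap each other on chromosome 11. They shared 1 4-OHT peak, chr11:83645252-83646384, which lay 1.46 kb from Ccl3 and 2.24 kb from Ccl4. Ccl3 is read towards lower coordinates, so this peak lay beyond its 3′ end and 2.99 kb from its start. The window of Ccl3 was covered at 9.82% in the 4-OHT list and 0% in the control list, and that of Ccl4 at 4.35% and 0%. In the control list the nearest peak was 101 kb from Ccl3 and 85.9 kb from Ccl4. The peak had a fold enrichment of 2.84 and a −log10 q of 1.74, both the authors' values for that list.

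Ccl12, which encodes a monocyte attractant of mice, had a 4-OHT peak of 855 bp at chr11:82105523-82106377. It lay 2.12 kb beyond the 3′ end of the gene, had a −log10 q of 1.38 and covered 7.40% of the window, against 0% in the control list. The nearest control peak was 63.0 kb away. Cxcl14, a chemokine of epithelia, had a 4-OHT peak of 500 bp at chr13:56301143-56301642, which covered 2.75% of its window, against 0% in the control list. That peak lay 4.59 kb upstream of the annotated start, with a −log10 q of 1.16. The nearest control peak of Cxcl14 was 15.5 kb from the gene. All 4 genes thus had no control peak in the window, and none of the 4-OHT peaks touched a gene body.

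Ccl28 and Ccl25 were the genes with a peak inside the gene body. Ccl28 encodes a ligand of Ccr10 made by mucosal epithelia. Its window was covered at 3.19% in the 4-OHT list, by 2 peaks, and at 6.16% in the control list, by 3 peaks. One site inside the gene was in both lists, at chr13:119642713-119643096 in the 4-OHT list and chr13:119642950-119644173 in the control list. The 4-OHT peak there had a −log10 q of 2.81 and the control peak 1.60. Both lists also had a peak at the 3′ end of the gene, at chr13:119654471-119655379 in the 4-OHT list and chr13:119654029-119654576 in the control list. Ccl25 encodes a thymus and gut chemokine that binds Ccr9. It had no 4-OHT peak within 21.9 kb, and a control peak of 1082 bp at chr8:4351928-4353009, 2.34 kb downstream of the second start, covered 2.41% of its window. Exons and introns could not be assigned, because the gene table gives only gene limits.

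**Figure D1:**
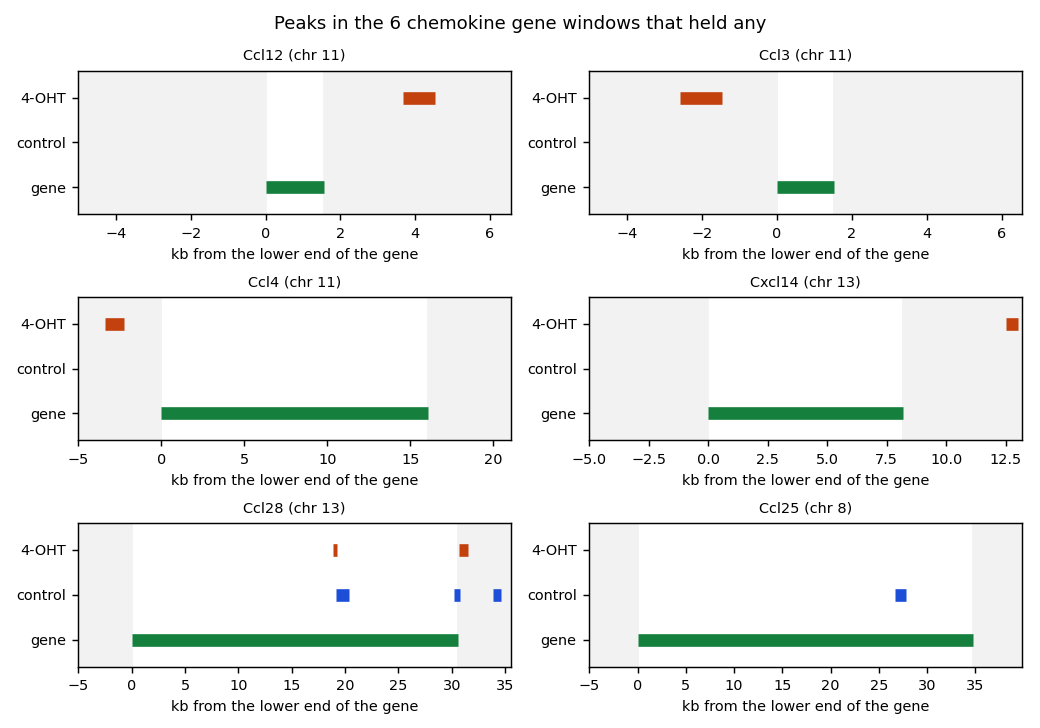
Peaks in the windows of Ccl12, Ccl3, Ccl4, Cxcl14, Ccl28 and Ccl25, with kb from the lower end of the gene on the horizontal axis. Orange bars are 4-OHT peaks, blue bars control peaks, green bars the gene, and grey shading the 5 kb on both sides; 4 genes have orange bars only, Ccl25 a blue bar only, and Ccl28 both.

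Of the 5 peaks in these windows in the 4-OHT list, 1 had a −log10 q of 2 or more, the one inside Ccl28. Of the 4 in the control list, 0 did. Across the autosomes 11.7% of 4-OHT peaks and 19.0% of control peaks passed that value. With both lists limited to such peaks, 1 gene of 38 had a peak in the window in the 4-OHT list, against 10.7% of all genes, and 0 in the control list, against 13.6%.

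Low coverage extended well beyond the genes. Peaks covered on average 0.0331% of the gene bodies in the 4-OHT list and 0.216% in the control list. The first 5 kb on both sides were covered at 1.19% and 0.248%. From 5 to 20 kb the means were 1.03% and 0.777%, from 50 to 100 kb 0.883% and 0.794%, and from 200 to 500 kb 2.02% and 1.57%. For all genes the means were 2.52% and 2.46% in the body and 4.18% and 3.95% from 200 to 500 kb. At each distance the members' mean was below that of all genes in both lists.

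**Figure D2:**
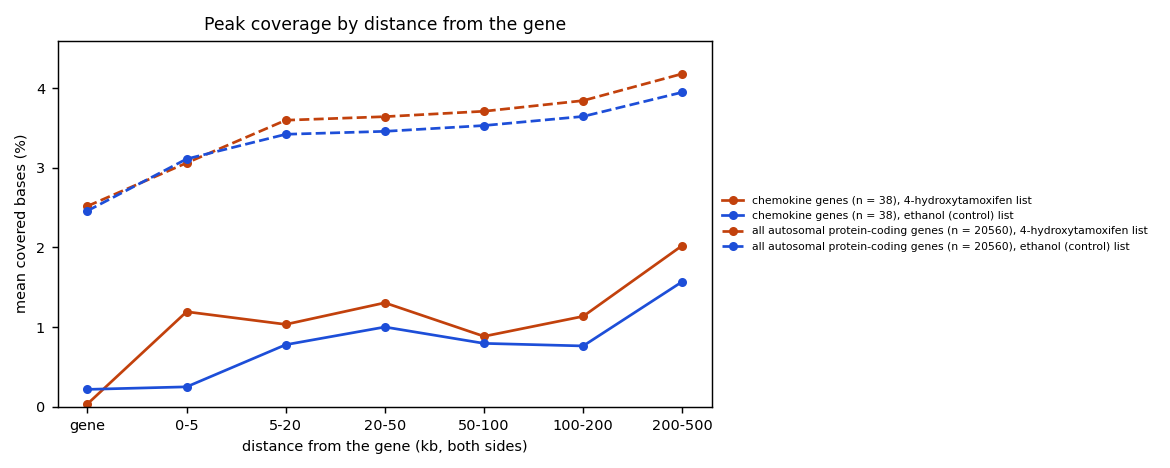
Mean percent of bases under peaks (vertical axis) in the gene body and in 6 distance ranges on both sides of the gene in kb (horizontal axis), for 38 chemokine genes (solid) and 20560 protein-coding genes (dashed). Orange is the 4-OHT list and blue the control list; the solid lines stay at or below 2.02% while the dashed ones reach 4.18%.

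The median chemokine gene lay farther from a peak than the median gene of the autosomes in both lists. The median distance from the gene to a peak was 48.2 kb in the 4-OHT list and 84.0 kb in the control list, against 23.1 kb and 25.8 kb for all genes. At −log10 q of 2 or more the order of the lists turned, with 289 kb in the 4-OHT list and 228 kb in the control list for members, against 127 kb and 98.9 kb for all genes. There the members were closer by 2-fold or more in 1 case of 38 and farther in 7. Of all 20560 genes, 3544 were closer and 6016 farther by that rule. Over all peaks again, the distance exceeded 100 kb for 11 of 38 members in the 4-OHT list, against 20.1% of all genes. In the control list it did so for 15 of 38, against 22.3%. Distances were compared after adding 1 kb to each. The nearest peak was closer by 2-fold or more in the 4-OHT list for 13 of 38 members, against 17.9% of all genes. It was farther by 2-fold or more for 6 of 38, against 14.3%. The members are not independent here, since 38 genes had only 21 different nearest peaks in the 4-OHT list and 19 in the control list.

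**Figure D3:**
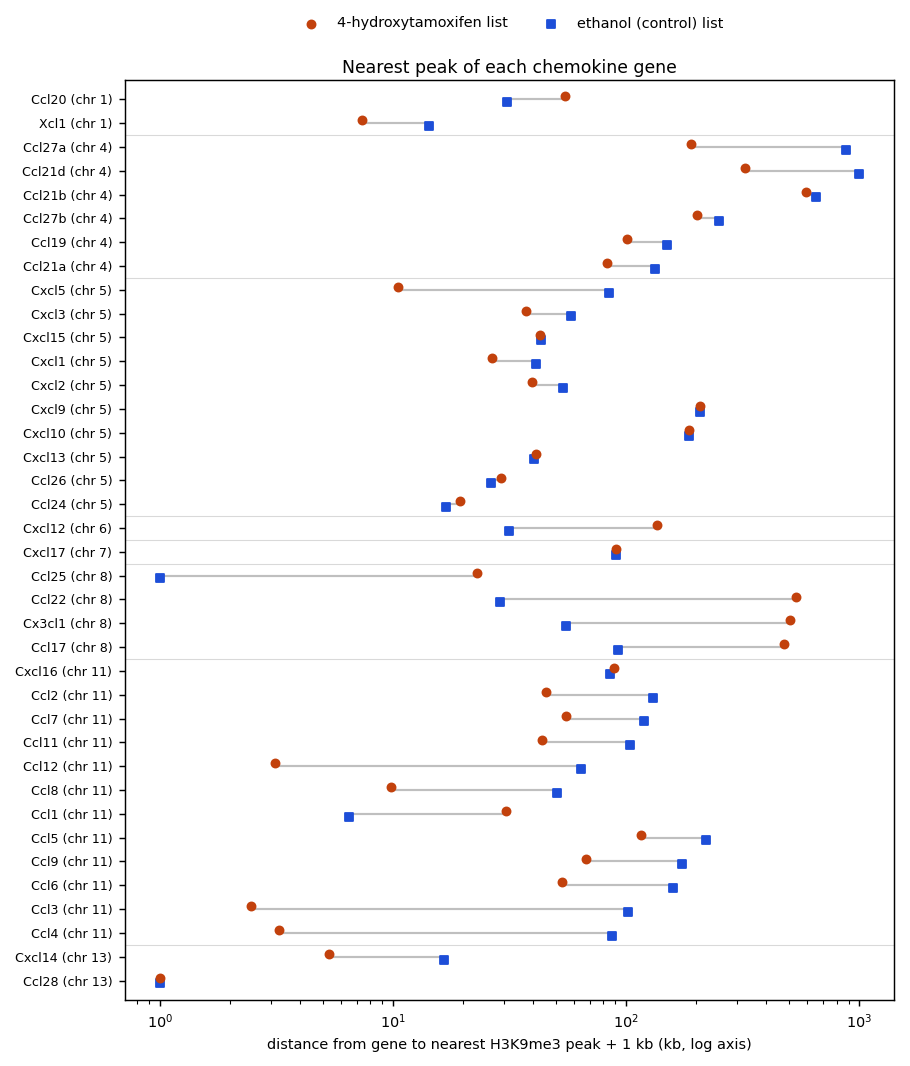
Distance from each of the 38 chemokine genes to its nearest peak plus 1 kb, on a log axis, with genes in rows by chromosome and position. Orange circles are the 4-OHT list and blue squares the control list, joined by a grey line; most genes of chromosome 11 have the circle on the left, and Ccl22, Cx3cl1 and Ccl17 have the square on the left.

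The CC chemokines of chromosome 11 were the group with the most members. The cluster holds 11 genes over 1.63 Mb. Their median distance to a peak was 42.6 kb in the 4-OHT list and 103 kb in the control list. For all chromosome 11 genes it was 39.9 kb and 54.3 kb. The Ccl2 group of 6 attracts mainly monocytes, eosinophils and T cells, and the Ccl5 group of 5 also holds Ccl9, Ccl6, Ccl3 and Ccl4. Ccl2, at the lower end, was 44.2 kb from a peak in the 4-OHT list and 129 kb in the control list, and Ccl7 beside it was at 54.4 kb and 119 kb. Ccl11, the eosinophil attractant eotaxin, was at 42.6 kb and 103 kb, and Ccl8 at 8.81 kb and 49.6 kb. In each of these the 4-OHT peak was the closer. Ccl1, a ligand of Ccr8, went the other way, at 29.4 kb in the 4-OHT list and 5.47 kb in the control list. Ccl5 was at 115 kb and 220 kb, Ccl9 at 66.6 kb and 172 kb, and Ccl6 at 52.2 kb and 158 kb.

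In this cluster 9 of 11 genes were closer to a peak by 2-fold or more in the 4-OHT list, against 24.7% of all chromosome 11 genes, and 1 was farther, against 14.2%. These 9 calls rested on 3 4-OHT peaks. The 1 beyond Ccl3 was the nearest peak of Ccl9, Ccl6, Ccl3 and Ccl4, the 1 beyond Ccl12 served Ccl11, Ccl12 and Ccl8, and a peak of 850 bp at chr11:81990482-81991331 served Ccl2 and Ccl7. None of the 3 overlapped a control peak, and their −log10 q values were 1.74, 1.38 and 1.16. With both lists limited to peaks of −log10 q of 2 or more, 0 of the 11 genes were closer by 2-fold or more, against 18.9% of chromosome 11 genes. By any amount 6 of the 11 were closer, against 685 of 1602 chromosome 11 genes. The order then turned for Ccl2 (281 kb in the 4-OHT list and 212 kb in the control list), Ccl7, Ccl11, Ccl12, Ccl8 and Ccl1.

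With flanks of 500 kb, the chromosome 11 region was covered at 2.33% in the 4-OHT list, by 79 peaks, and at 1.27% in the control list, by 44 peaks. The ratio of 1.84 compares with 1.15 for the whole chromosome, which was covered at 5.07% and 4.42%. Most of the difference lay between the Ccl2 and Ccl5 groups, where 46.4 kb of 1346 kb was covered in the 4-OHT list and 22.1 kb in the control list. The Ccl2 group itself had 2 peaks in each list, and the Ccl5 group 1 in the 4-OHT list and 0 in the control list. Of the region's peaks, 5 from 4-OHT and 6 from the control had a −log10 q of at least 2. With only these, the difference in covered percent was -0.0853 points. Across the autosomes this cutoff kept 11.7% of 4-OHT peaks but 19.0% of control peaks. It thus removes a larger share of 4-OHT peaks everywhere, and the turn alone does not place the difference in weak peaks.

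The CXC chemokines of chromosome 5 had no peak in any window in either list. Of the 7 genes, Cxcl5, Cxcl3, Cxcl15, Cxcl1 and Cxcl2 lie together, and all but Cxcl15, a lung chemokine, encode ligands of the neutrophil receptor Cxcr2. Cxcl5, at the lower end, was 9.54 kb from a 4-OHT peak and 83.6 kb from a control peak. Cxcl3 was at 36.3 kb in the 4-OHT list and 57.1 kb in the control list, Cxcl1 at 25.7 kb and 40.04 kb, and Cxcl2 at 38.3 kb and 52.7 kb. Cxcl15 had 1 overlapping peak in both lists as its nearest, at 41.5 kb and 42.2 kb. In the 4-OHT list the nearest peak of Cxcl5 was closer by 2-fold or more, 1 of the 7 genes against 18.6% of chromosome 5 genes, and for 0 of 7 it was farther, against 14.6%. At −log10 q of 2 or more that order turned for Cxcl5, at 387 kb in the 4-OHT list and 139.9 kb in the control list. It also turned for Cxcl3, at 361 kb and 167 kb, and Cxcl15, at 346 kb and 175 kb. Of the 7 genes, 5 were then farther in the 4-OHT list, against 664 of 1245 chromosome 5 genes. The 2 closer ones were Cxcl1 and Cxcl2, against 504 of 1245. Pf4 and Ppbp, platelet chemokine genes of this group whose symbols fall outside the rule, also had no peak in the window. Pf4 was at 22.7 kb and 71.9 kb, and Ppbp at 18.8 kb and 75.2 kb.

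Cxcl9 and Cxcl10, interferon-induced ligands of Cxcr3, a chemokine receptor on T cells, lay far from peaks in both lists. Cxcl9 was 206.1 kb from a 4-OHT peak and 205.6 kb from a control peak, and Cxcl10, the upper end of the cluster, 185.3 kb and 184.8 kb. The peaks overlapped, at chr5:92534191-92537974 in the 4-OHT list and chr5:92533725-92535472 in the control list, with −log10 q of 2.65 and 2.92. Both genes sat in a stretch without peaks of 496 kb in the 4-OHT list and 535 kb in the control list. The whole region with flanks was covered at 0.890% in the 4-OHT list, by 31 peaks, and 0.857% in the control list, by 29, while chromosome 5 was covered at 6.42% and 6.35%.

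The Ccl19, Ccl21 and Ccl27 genes of chromosome 4 had no peak in the window in either list and a median distance to a peak of 194 kb in the 4-OHT list and 449 kb in the control list. Ccl19 and the Ccl21 genes encode ligands of Ccr7, which guide lymphocytes and dendritic cells into lymph nodes, and the Ccl27 genes encode skin chemokines that bind Ccr10. All 6 members lay in 1 stretch without peaks, of 1.28 Mb in the 4-OHT list and 2.01 Mb in the control list. Those stretches held 26 and 45 protein-coding genes. Ccl21b, which the table gives as 83706 bp long, was 592 kb from a peak in the 4-OHT list and 649 kb in the control list. Ccl21d was at 323 kb and 1001 kb, and Ccl27a, at the lower end, at 188 kb and 873.5 kb. Ccl27b was at 200.2 kb and 249.9 kb, Ccl19 at 99.8 kb and 149.5 kb, and Ccl21a, at the upper end, at 82.2 kb and 132 kb. All 6 were closer to a peak in the 4-OHT list, against 52.4% of chromosome 4 genes. Of them 2 were closer by 2-fold or more, against 23.1%, and 0 farther, against 11.7%. These calls are not independent. The 4-OHT peak at chr4:41580783-41581037 was the nearest of Ccl27a, Ccl21d and Ccl21b. That at chr4:42856213-42856577 was the nearest of Ccl27b, Ccl19 and Ccl21a. Neither overlapped a control peak, and their −log10 q values were 1.41 and 1.35. At −log10 q of 2 or more, 1 of the 6 genes was closer, Ccl27a, against 535 of 1301 chromosome 4 genes. The distances in the 2 lists then nearly met, as for Ccl19 at 149.55 kb in the 4-OHT list and 149.51 kb in the control list.

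With flanks, the chromosome 4 region was covered at 0.327% in the 4-OHT list, by 10 peaks, and at 0.149% in the control list, by 4 peaks. All of these peaks lay in the flanks. Chromosome 4 as a whole was covered at 6.75% and 5.80%. The region holds near-identical gene copies, with the synonym Scya21 given to 5 genes of the table. Reads from such copies may have no unique position, and how they were handled was not given in the sources used here. The part of this in the absence of peaks was not tested.

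**Figure D4:**
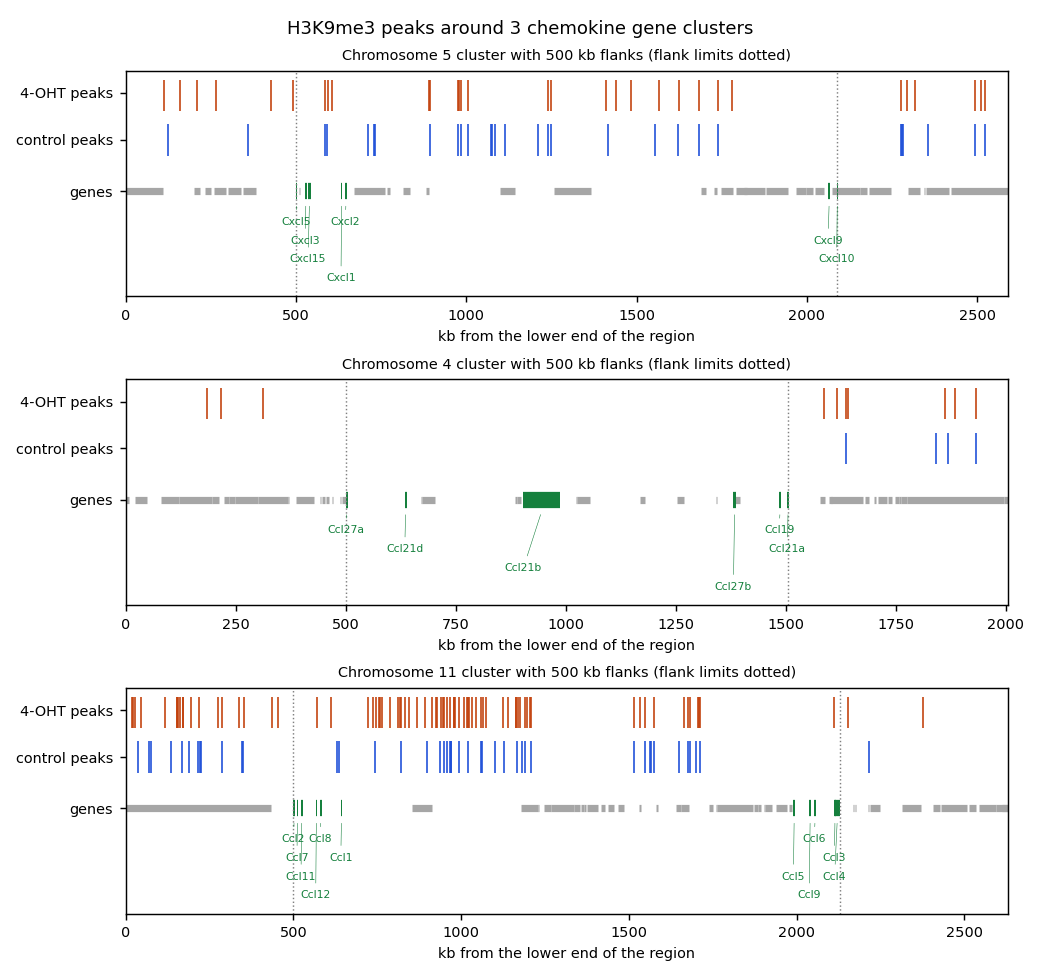
The chemokine clusters of chromosomes 5, 4 and 11 with 500 kb flanks, in kb from the lower end of each region. Ticks mark peak midpoints in the 4-OHT list (orange) and the control list (blue), green bars the chemokine genes (drawn at least 4 kb wide) and grey bars other protein-coding genes; the chromosome 4 cluster has no tick between its dotted flank limits, and the chromosome 11 panel has 79 orange and 44 blue ticks.

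A smaller share of the peaks of these regions was in both lists than across the autosomes. In the 3 regions, 30 of 120 4-OHT peaks overlapped a control peak by at least 1 bp (25.0%, Wilson interval 18.1 to 33.4%), against 51.5% of all autosomal 4-OHT peaks. Of the 77 control peaks, 31 overlapped a 4-OHT peak (40.3%, 30.0 to 51.4%), against 53.3%. Peaks here were also narrower, with medians of 566 bp in the 4-OHT list and 573 bp in the control list, against 863 bp and 912 bp over the autosomes, and a narrow peak meets another less easily. The part of width in the lower shares was not tested. On chromosome 11, 15 of 79 4-OHT peaks were shared (19.0%, 11.9 to 29.0%) and 15 of 44 control peaks (34.1%, 21.9 to 48.9%). On chromosome 5 the counts were 13 of 31 (41.9%, 26.4 to 59.2%) and 14 of 29 (48.3%, 31.4 to 65.6%), with intervals that include the shares of the autosomes. On chromosome 4 they were 2 of 10 and 2 of 4. The low share of control peaks thus rested on chromosome 11.

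The 14 genes outside the clusters were mostly farther from a peak in the 4-OHT list (11 of 14, against 38.0% of all genes) and closer in 2, Xcl1 and Cxcl14. They were farther by 2-fold or more in 5 of 14, set beside the 14.3% of all genes given above. The count of 11 takes any difference, such as 89.176 kb in the 4-OHT list and 89.153 kb in the control list for Cxcl17. Ccl22 and Ccl17, whose proteins bind Ccr4 on T cells, and Cx3cl1, the membrane-bound chemokine of endothelium and neurons, lie side by side on chromosome 8. Ccl22 was 534 kb from a peak in the 4-OHT list and 27.9 kb in the control list, Cx3cl1 at 503 kb and 54.4 kb, and Ccl17 at 473.8 kb and 91.6 kb. All 3 control distances led to a single control peak of 264 bp at chr8:94717483-94717746, with a −log10 q of 1.60 and no 4-OHT peak over it. At −log10 q of 2 or more the order was turned for each of them, with Ccl22 at 566 kb in the 4-OHT list and 685 kb in the control list.

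Cxcl12, the ligand of Cxcr4 that holds stem cells in their niches, lies on chromosome 6 and was 134 kb from a peak in the 4-OHT list and 30.6 kb in the control list. Among peaks of −log10 q of 2 or more, Cxcl12 was at 161.1 kb and 162.4 kb. Chromosome 6 as a whole was covered at 5.27% and 10.5%, and the part of this in the distance was not tested. Ccl20, a ligand of Ccr6, was at 53.7 kb and 30.0 kb, and Xcl1, a lymphocyte product that attracts dendritic cells, at 6.35 kb and 13.3 kb. Cxcl13, the B cell attractant that binds Cxcr5, was at 39.99 kb and 39.3 kb. The eotaxin gene Ccl24 was at 18.4 kb and 15.9 kb, and Ccl26 beside it at 28.0 kb and 25.4 kb. Cxcl16, a membrane-bound ligand of Cxcr6, was at 87.5 kb and 84.4 kb, and Cxcl17 at 89.2 kb in both lists. For these last 5 genes the distances differed little between the lists.

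Peaks at the receptors of these chemokines were also compared. Of 22 autosomal receptor genes, 4 had a peak in the window in the 4-OHT list (18.2%) and 6 in the control list (27.3%), set beside the 31.0% and 30.3% given above for all genes. Their mean covered percent was 1.41% and 1.24%, a difference of 0.176 points. Its direction turned to -0.0381 points at −log10 q of 2 or more, -0.50 in gene bodies alone and -0.147 with 20 kb on both sides. The windows with peaks were all on chromosome 9, which holds 14 of the receptor genes. Ackr4, a scavenger of Ccl19, Ccl21 and Ccl25, was covered at 1.29% in the 4-OHT list and 1.27% in the control list, by overlapping peaks with −log10 q of 3.57 and 2.84. Ccr2, the monocyte receptor of Ccl2, was covered at 0% in the 4-OHT list and 7.13% in the control list, by 2 control peaks with −log10 q of 1.14 and 1.43.

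The other 5 receptors with a peak are named after their values were seen. Ccr8, the receptor of Ccl1, was covered at 16.9% in the 4-OHT list and 3.05% in the control list, by overlapping peaks of 2351 bp and 654 bp. Ccr9, the receptor of Ccl25, was covered at 11.4% and 12.8%. Cxcr5 was covered at 1.501% and 0%, Cx3cr1 at 0% and 1.01%, and Ccr3 at 0% and 1.92%. In all, 3 receptor windows were covered more in the 4-OHT list, against 19.0% of all genes, and 4 less, against 17.6%. Chemokine windows were covered more in 4 cases and less in 2. Of the 14 receptor genes on chromosome 9, the nearest peak was closer by 2-fold or more in the 4-OHT list for 1, against 17.4% of that chromosome's genes, and farther for 3, against 12.8%.

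**Figure D5:**
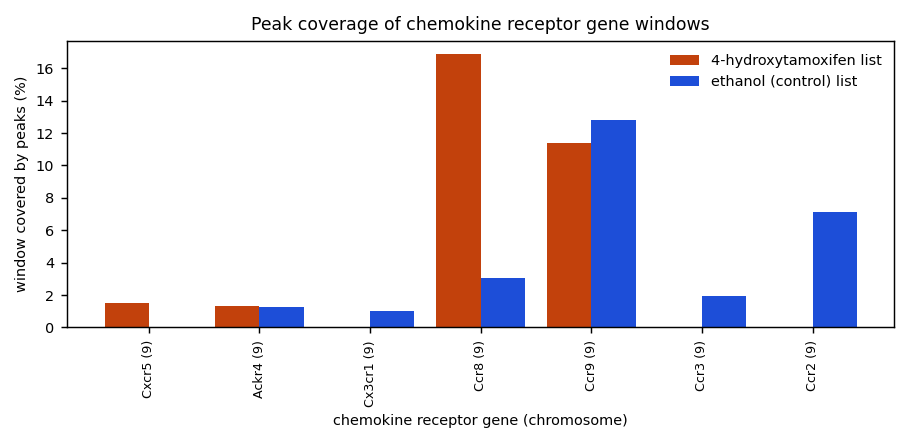
Percent of the gene window under peaks (vertical axis, from 0) for the 7 chemokine receptor genes with a peak in the window in either list, in order of position on chromosome 9. Orange bars are the 4-OHT list and blue bars the control list; Ccr8 and Ccr9 stand highest, with Ccr8 at 16.9% and 3.05% and Ccr9 at 11.4% and 12.8%.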

How the data were processed

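Native chromatin (8 µg) was immunoprecipitated for H3K9me3 and sequenced per condition, per the labels' protocols. Per the submitters' processing notes, the build was mm10 and the tools included BWA 0.7.17-r1188, MACS2 and ChIPseeker 1.30.3. How MACS2 was set, whether inputs served as its background and whether libraries were pooled is not given in the sources used here. The deposited lists hold the authors' fold over background (a ratio), −log10 q-value and a score made from q for every peak. Their p column was not used. These values describe or filter peaks within a list. Peak names carried another replicate number than the sample titles, so lists were assigned by condition. Input libraries were not analysed here.

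Covered percent, distance (0 where a peak overlaps the gene) and overlap were computed with Python 3.11.15, pandas 2.3.3, numpy 2.4.6 and scipy 1.17.1, and drawn with matplotlib 3.10.9. Gene limits were taken from RefSeq on GRCm38.p6, the assembly that mm10 names. Of its autosomal protein-coding genes, 105 listed below 3 Mb were left out. Covered percent and distance were checked on 500 simulated intervals. A cluster was the largest run of members on a chromosome with gaps of at most 2 Mb. The split of clusters at gaps over 500 kb and the 2-fold rule on distance were set after the data were seen. Named genes were those with a peak in the window, the 8 nearest and 8 farthest members, cluster ends, the first and last receptor with a peak, and the muscle genes. The remaining members are also given, beyond that rule. Members, lists and alternatives were chosen with earlier results of these data known.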

Additional observations from a re-analysis of the deposited data

How the results depend on the processing

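Of 40 alternative values for 10 results, 15 stayed within 1.5 times the value reported or its Wilson interval, 18 moved further and 7 changed sign. Differences are 4-OHT minus control. With the same number of peaks in both lists, 103258, 9 of the 10 results stayed within 1.5 times, and the chromosome 5 difference became 0.00892 points. This number is the full control list, so only the 4-OHT list changed. The results on the control list alone, its count of members with a peak and its median distance, could not move. They are still counted among the 9 and the 15. The cause was not tested, except that stricter peaks are fewer and joined peaks longer.

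At −log10 q of 2 or more, 12690 4-OHT and 19644 control peaks remained. There 1 and 0 members had a peak in the window, the median distances were 289 kb and 228 kb, and the mean member difference was 0.0249 points. The receptor difference turned to -0.0381 points and that of chromosome 11 to -0.0853, while those of chromosomes 4 and 5 were 0.0334 and 0.0504. The share of control peaks overlapped was 28.6%, and it was 24.7% when at least 50% of the control peak had to be covered.

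In gene bodies alone, 1 member had a 4-OHT peak and 2 had a control peak. Of all 20560 genes, 16027 had no 4-OHT peak in the body and 16195 no control peak. The mean differences in gene bodies turned to -0.183 points for members and -0.50 for receptors. With 20 kb on both sides, 9 members had a peak in the 4-OHT list and 6 in the control list. The share of all genes at that width is not given. The member difference was 0.242 points and the receptor difference turned to -0.147. Joining peaks within 5 kb gave 0.298 points for members, 1.84 for chromosome 11, 0.364 for chromosome 4 and -0.227 for chromosome 5. Without flanks the differences were -0.163 points on chromosome 5 and 0 on chromosome 4. No paired analysis was possible because only 1 list stood for each condition, and for the same reason no replicate could be left out. Read depth is unknown and limits each comparison between the lists.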

Other observations

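Other genes of the 3 cluster regions, picked here after their values were seen, also had peaks. On chromosome 11 the window of Tmem132e, a transmembrane protein gene and the next listed gene above Ccl1, was covered at 3.31% in the 4-OHT list and 0.515% in the control list. Asic2, an ion channel gene that fills most of the lower flank, was covered at 2.38% and 2.03%. The Schlafen genes, which include growth regulators of lymphocytes, lie between the Ccl2 and Ccl5 groups. Slfn3 was covered at 6.18% and 2.02%, Slfn2 at 4.93% and 0%, and Slfn4 at 0% and 1.22%. On chromosome 5 the epidermal growth factor family gene Areg was covered at 15.6% and 19.9%, while its neighbours Ereg and Epgn had no peak in the window. Of the 31 other genes of that region, 8 had a peak in the window in the 4-OHT list and 7 in the control list. The counts were 7 and 3 of 41 on chromosome 4, and 5 and 9 of 38 on chromosome 11. Each of these shares was below that of all autosomal protein-coding genes, 31.0% in the 4-OHT list and 30.3% in the control list. Few peaks in the window were therefore not particular to the chemokine genes of these regions.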
